A study of Mus musculus with 6 samples.

Results

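Mouse genes that carry, take up, store, release and export iron were followed across tumors treated by photodynamic therapy (PDT). The genes were chosen by name, as Trf, Tfrc, Steap3, Slc11a2, Slc11a1, Fth1, Ftl1, Ncoa4, Slc40a1 and Ireb2. All 10 were found once each among the 21899 genes listed in the expression table, and all 10 passed the filter on low values. Slc40a1 passed it only through 1 group, as given below. Male C57BL/6 mice carried subcutaneous tumors of LLC-luc, a luciferase-labelled line of Lewis lung carcinoma. Every tumor was irradiated with a laser, given as 620 nm for 10 min in the sample labels. The Laser group received irradiation with saline in place of a photosensitizer. The PC-La group received phycocyanin (PC), a light-absorbing protein of Spirulina, and in the SePC-La group selenium-enriched phycocyanin (Se-PC) took its place, both injected at the tumor 4 h before the light and, per the labels, every 5 days. The paper's methods differ from the labels, with a longer wavelength and a shorter interval between injections. Each group had 2 samples and none was left without laser. The sources do not say whether the samples of a group came from separate mice, so the p-values measure only the spread between these samples.

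Iron travels in blood bound to transferrin, which cells take in through the transferrin receptor. Inside the endosome the iron is released, reduced and pumped into the cytosol, where ferritin stores the surplus, and ferroportin is the only known route of iron export from mammalian cells. Iron regulatory proteins bind stem-loops called iron-responsive elements (IREs) when iron is scarce, which blocks translation when the element lies ahead of the coding sequence and stabilizes the mRNA when it lies behind it. Macrophages recycle iron from red cells, and growing tumors are known to need much of it.

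The IRE sequences are shown first because they group the genes by a feature that the expression values did not use. Transcripts of 21901 protein-coding genes in GENCODE M21 were searched on the sense strand for an unpaired C, a stem of 5 base pairs with G-U pairs allowed, and the loop CAGTGN with a last base other than G. A match in an untranslated region was found for 123 genes (0.56%), in the 5′ region of 23 and the 3′ region of 100. Among the 10 iron genes, 4 had a match, and none of the other 55 iron genes described further on had one. The 5′ region held 1 site in Fth1, Ftl1 and Slc40a1, and the 3′ region of Tfrc held 4. A site that departs from this strict pattern would not be found, so nothing follows for the 6 genes without a match. Each site is given 5′ to 3′ as the DNA sense strand with 29 bases, and capitals mark the loop.
Fth1, chr19:9982732-9982760, plus strand: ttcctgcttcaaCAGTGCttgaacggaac
Ftl1, chr7:45459779-45459807, minus strand: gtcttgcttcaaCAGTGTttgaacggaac
Slc40a1, chr1:45925465-45925493, minus strand: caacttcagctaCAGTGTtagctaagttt
Tfrc, chr16:32631219-32631247, plus strand: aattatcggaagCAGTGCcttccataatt
Tfrc, chr16:32631598-32631626, plus strand: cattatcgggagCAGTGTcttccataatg
Tfrc, chr16:32631663-32631691, plus strand: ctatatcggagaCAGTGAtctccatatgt
Tfrc, chr16:32631710-32631738, plus strand: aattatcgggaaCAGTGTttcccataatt
Coordinates are those of GRCm38. The ferritin sites share the same upper stem, ttcaa with ttgaa, while the Tfrc sites have stems of their own.

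The expression values carried no unit and were read as FPKM, a level scaled to exon length and to the counted reads of the sample. The length was that of all annotated exons merged, 3469 bases for Fth1 and 1340 for Ftl1, so levels compare only roughly between genes. The reads recovered from these values came to between 14447793 and 17649489 per sample. The heavy ferritin chain Fth1 had the highest mean over the 6 samples, 716 FPKM, followed by the light chain Ftl1 with 354 FPKM. Tfrc stood at 31.9, Slc11a1 at 14.1, Ireb2 at 10.6, Steap3 at 9.01, Trf at 8.20, Slc11a2 at 7.08 and Ncoa4 at 5.66 FPKM. Slc40a1 was the lowest at 1.27 FPKM, from 28 to 408 reads per sample. Neighbours in this order overlapped in their ranges over the samples, except that Ftl1 stood wholly above Tfrc and Ncoa4 wholly above Slc40a1. Slc40a1 also varied most, 14.7-fold from the lowest to the highest sample, against 5.12-fold for Trf, 3.15-fold for Tfrc and 1.38-fold for Steap3.

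The Laser samples stood apart from each other. On log2(FPKM + 1) they correlated across genes at 0.946, while Laser replicate 1 correlated at 0.986 and 0.983 with the PC-La samples, and the replicates of PC-La and SePC-La at 0.992 and 0.972. Summed over 9 skeletal muscle markers Laser replicate 2 had 165 FPKM, against 1.68 to 25.4 in the other samples. The 9 erythroid markers summed to 13.7 FPKM in it and to 127 to 934 elsewhere, and the 8 neutrophil markers to 39.4 and to 96.9 to 482. Adipocyte markers (8 genes) ranged from 2.61 to 77.4 FPKM, highest in SePC-La replicate 2, and endothelial markers (6 genes) from 23.0 to 39.7 FPKM. The tissue is labelled lung cancer, and of 7 lung epithelium markers 3 were at 0 in every sample and the sum was at most 1.74 FPKM. Fewer cells of a type and less RNA per cell cannot be told apart in bulk tumors.

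**Figure D1:**
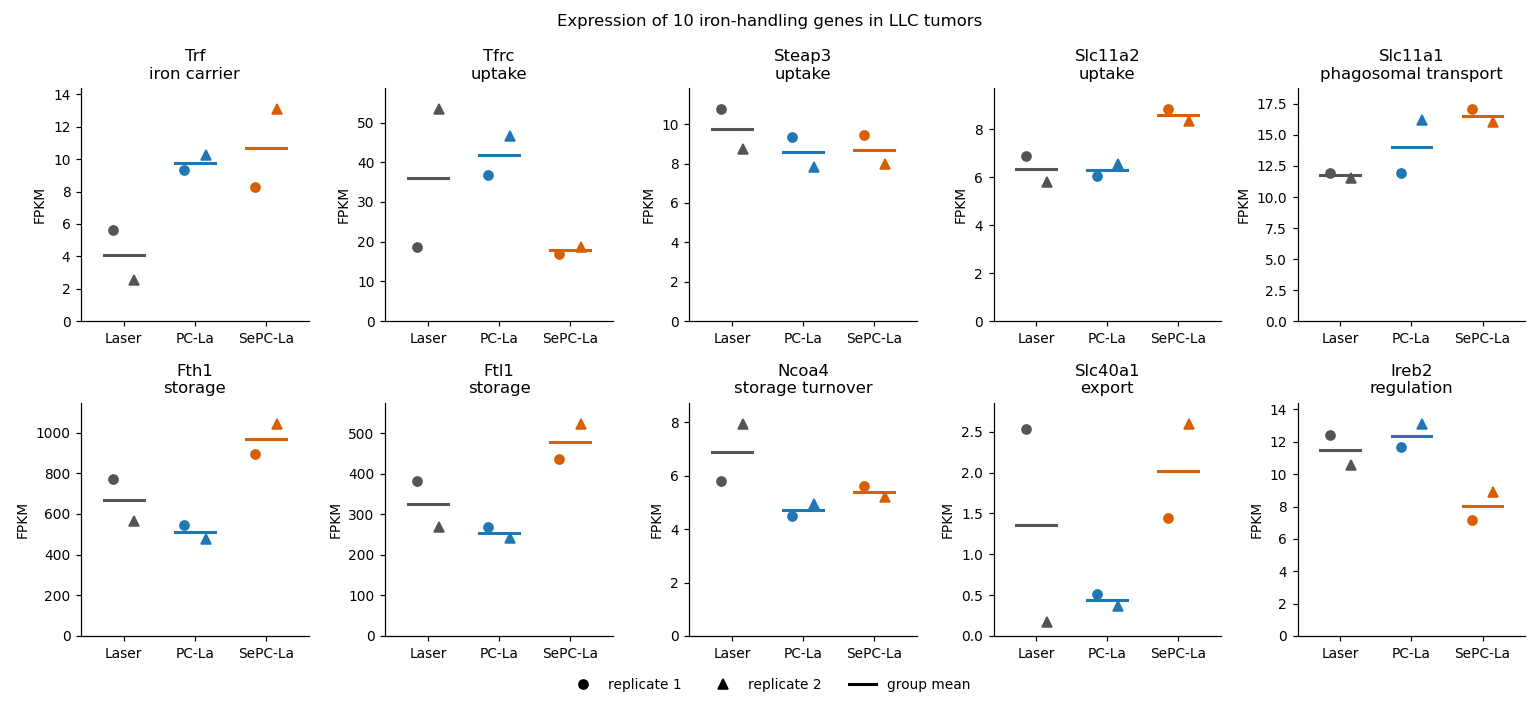
FPKM of the 10 iron genes in each tumor (vertical axes, linear and starting at 0) by group (horizontal axes), with circles for replicate 1, triangles for replicate 2 and bars for the group mean. Fth1 and Ftl1 lie highest in the SePC-La samples and lowest in the PC-La samples, and the Laser samples are far apart for Tfrc and Slc40a1.

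Differences were tested with limma on log2(FPKM + 1) over 10853 genes, SE stands for the standard error of a difference, and fold changes on that scale understate the change of low genes. The study's criterion for a called gene was an absolute log2 fold change over 1 with an unadjusted p under 0.05. No gene had a Benjamini-Hochberg adjusted p under 0.05 in this fit in any comparison (0% of those tested), and the smallest over all genes was 0.0649. With the other settings that keep all samples in the data, between 0 and 637 genes did. The iron genes are therefore described by unadjusted p-values and by whether the samples of the groups overlapped.

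SePC-La against PC-La, the comparison of the selenium-enriched with the plain photosensitizer, showed ferritin mRNA at 1.89 (Fth1) and 1.88 (Ftl1) times the level of PC-La, beside 0.427 times for the receptor Tfrc and 0.647 times for the regulator Ireb2. Of the 10 genes, 8 were higher in SePC-La and 2 lower, where 41.5% of all genes tested were higher. The median log2 fold change was 0.20, where the median of all genes tested was -0.07. An unadjusted p under 0.05 was reached by 4 of the 10, with 24.3% of all genes, namely Fth1, Ftl1 and Slc11a2 on the higher side and Ireb2 on the lower side. The groups did not overlap for 7 of the 10, close to the 65.5% of all genes. Slc40a1, which passed the filter only through SePC-La, is among these 7 and among the 8 higher. The criterion was met by 0 of the 10, with 2.98% of all genes. That count was 2 with median-ratio scaling, Fth1 and Ftl1, and 2 with only the 4 samples compared in the fit, Slc40a1 and Tfrc. In the latter fit limma gave 637 genes an adjusted p below 0.05, Fth1, Ftl1 and Tfrc included. The count of 4 was 3 without PC-La replicate 1 or SePC-La replicate 2, and 2 without PC-La replicate 2 or SePC-La replicate 1.

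SePC-La against Laser, the comparison of Se-PC PDT with light alone, had 6 genes higher, Slc40a1 included, and 4 lower. Of all genes 40.2% were higher. The median log2 fold change was 0.43 beside -0.06 for all genes. Trf alone met the criterion, 1 of 10 where 0.682% of all genes did. Higher in SePC-La at an unadjusted p under 0.05 were Trf, Fth1, Ftl1, Slc11a1 and Slc11a2, and Ireb2 was lower, which makes 6 of the 10 with 12.1% of all genes. The groups did not overlap for 7 of the 10, with 40.6% of all genes. The count of 6 depended on the scaling and on single libraries. With all samples kept it was 4 with quantile normalization, which lost Fth1 and Ftl1, and 5 with only the 4 samples compared. It was 7 without Laser replicate 1, 2 without Laser replicate 2, 3 without SePC-La replicate 1 and 1 without SePC-La replicate 2, in fits where the lone sample is assumed to vary like the other groups.

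PC-La against Laser, the comparison of PC PDT with light alone, had 4 genes higher and 6 lower, where 49.9% of all genes were higher. The median log2 fold change was -0.09 beside -0.0006 for all genes. Trf met the criterion, 1 of 10 with 1.29% of all genes. At an unadjusted p under 0.05 Trf was higher and Ncoa4 lower, 2 of 10 with 5.78% of all genes. The groups did not overlap for 4 of the 10, near the 42% of all genes. The count of 2 was 3 with quantile normalization and 1 with only the 4 samples compared, and it was 5 without Laser replicate 2, 1 without PC-La replicate 1 and 0 without PC-La replicate 2. The comparisons with Laser share the Laser samples, so their values are set side by side and not counted as separate evidence.

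**Figure D2:**
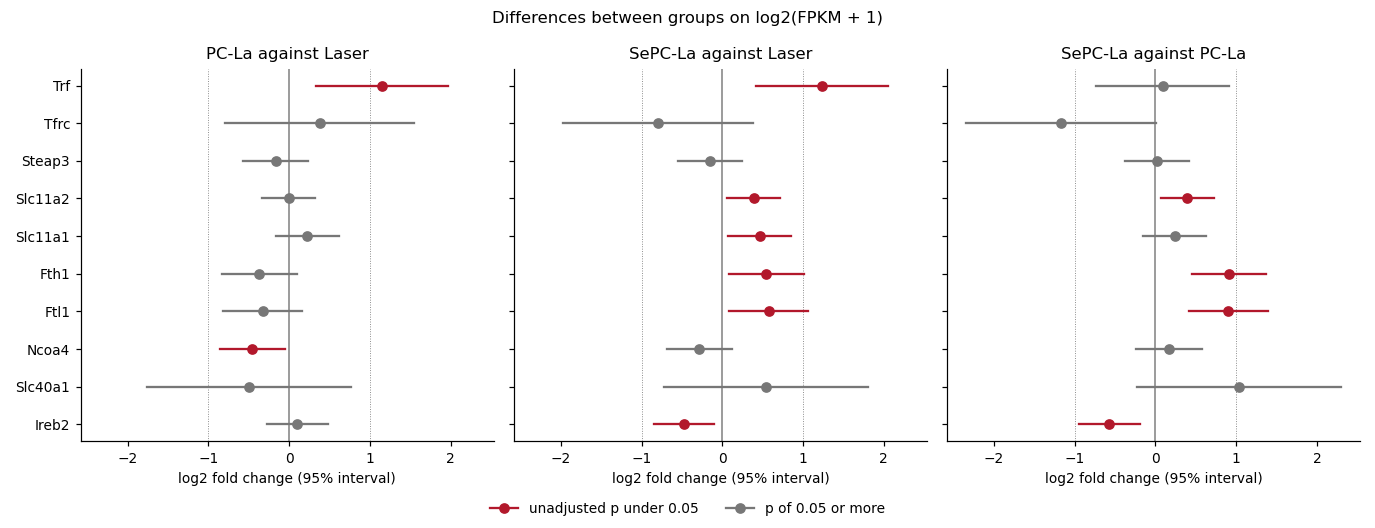
Log2 fold changes of the 10 iron genes on log2(FPKM + 1) (horizontal axes) with 95% intervals from limma, 1 panel per comparison; dotted lines mark a change of 1 in either direction, and red marks an unadjusted p under 0.05. Trf lies past 1 in both comparisons with Laser, and Fth1 and Ftl1 lie just under 1 in SePC-La against PC-La.

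Trf (ENSMUSG00000032554) encodes transferrin, the iron carrier of blood plasma, and lies on chromosome 9 from 103204001 to 103230444 on the minus strand. It had 5.65 and 2.56 FPKM in the Laser tumors, in the PC-La tumors 9.35 and 10.2, and in the SePC-La tumors 8.30 and 13.1, from 150 to 759 reads. All 4 samples given a photosensitizer were above both Laser samples, and the PC-La samples lay between the SePC-La samples. Its mean was 2.38 times that of Laser in PC-La and 2.60 times in SePC-La. The log2 fold change was 1.15 in PC-La (SE 0.33, limma adjusted p = 0.753) and 1.23 in SePC-La (SE 0.33, limma adjusted p = 0.376), rank 125 and rank 48 from the highest of the 10853 genes. Without Laser replicate 2 it was 0.70 and 0.78, under the criterion, and without Laser replicate 1 it was 1.60 and 1.69. The criterion was also lost without PC-La replicate 2 (1.09) and without SePC-La replicate 2 (0.93). Between SePC-La and PC-La it differed by 0.09, with a 95% interval from -0.73 to 0.91, and by -0.21 without SePC-La replicate 2. The study picked Trf as a target gene from these samples, so it is not independent evidence for the list. The paper states that Se-PC PDT lowered Trf and PC PDT raised it, whereas here Trf was above Laser in both groups. It lists qRT-PCR primers for Trf, so its values may come from another measure. Transferrin of the blood comes mostly from hepatocytes, and 8 hepatocyte markers summed to between 0.644 and 3.33 FPKM per sample, with all 8 under a mean of 1 FPKM. The cells that held the Trf mRNA were not tested.

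Tfrc (ENSMUSG00000022797) encodes transferrin receptor 1, which binds iron-loaded transferrin at the cell surface, and lies on chromosome 16 from 32608920 to 32632794 on the plus strand. Its FPKM was 18.6 and 53.4 in the Laser tumors, in the PC-La tumors 36.7 and 46.7, and in the SePC-La tumors 16.9 and 18.7. Both SePC-La samples were below both PC-La samples, while the Laser samples spanned almost the whole range. The mean of SePC-La was 0.427 times that of PC-La, a log2 fold change of -1.17 (SE 0.47, limma adjusted p = 0.206), with an unadjusted p of 0.0502 from limma just short of the criterion. It lay at rank 196 from the lowest. The criterion was met without the trend, without robust estimation, with the replicate number as a block and with only the 4 samples compared. Against Laser the change in SePC-La was -0.80 (SE 0.47, limma adjusted p = 0.517), but it ran from -0.06 when Laser replicate 2 was left out to -1.53 when Laser replicate 1 was. PC-La exceeded Laser by 0.38, which became -0.36 when Laser replicate 1 was left out, so no direction against Laser can be given for PC-La. The 8 proliferation markers, whose cells are known to use much iron, summed to between 267 and 335 FPKM in all samples. In SePC-La 7 of the 8 were higher than in PC-La, 2 of them at an unadjusted p under 0.05, close to the 24.3% of all genes. In PC-La all 8 were lower than in Laser, while 0 of the 8 met the criterion in any comparison. Their part in the level of Tfrc was not tested.

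Steap3 (ENSMUSG00000026389) encodes the ferrireductase that acts on iron in the endosome, on chromosome 1 from 120190757 to 120272705 on the minus strand. It was the steadiest of the genes, with 10.8 and 8.76 FPKM in the Laser tumors, in the PC-La tumors 9.33 and 7.81, and in the SePC-La tumors 9.43 and 7.98. The 3 groups overlapped. Its 95% intervals were -0.57 to 0.23 for PC-La and -0.54 to 0.25 for SePC-La against Laser, and -0.38 to 0.42 between the photosensitizers.

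Slc11a2 (ENSMUSG00000023030) encodes DMT1, which pumps ferrous iron out of the endosome, on chromosome 15 from 100387898 to 100425072 on the minus strand. It had 6.88 and 5.80 FPKM in the Laser tumors, in the PC-La tumors 6.05 and 6.55, and in the SePC-La tumors 8.85 and 8.36. The SePC-La samples were above the other 4, and the Laser and PC-La samples overlapped. The mean of SePC-La was 1.36 times that of Laser and 1.36 times that of PC-La. The log2 fold changes were 0.39 and 0.40 (SE 0.14 each, limma adjusted p = 0.385 and 0.165). They remained above 0 with each sample left out, between 0.28 and 0.50 in the comparison with Laser. PC-La differed from Laser by -0.0048, with a 95% interval from -0.33 to 0.33.

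Slc11a1 (ENSMUSG00000026177) encodes NRAMP1, a related metal transporter of the phagosome membrane that is known from macrophages and neutrophils, on chromosome 1 from 74375195 to 74386062 on the plus strand. It had 12.0 and 11.5 FPKM in the Laser tumors, in the PC-La tumors 11.9 and 16.2, and in the SePC-La tumors 17.1 and 16.0. Both SePC-La samples were above both Laser samples, and PC-La replicate 2 was level with SePC-La while PC-La replicate 1 was level with Laser. SePC-La exceeded Laser by a log2 fold change of 0.46 (SE 0.16, limma adjusted p = 0.385), and that against PC-La was 0.24, with a 95% interval from -0.16 to 0.63. Beside it, 13 macrophage markers summed to 738 and 792 FPKM in the Laser tumors, in the PC-La tumors 962 and 1017, and in the SePC-La tumors 483 and 835. The 8 neutrophil markers summed to 171 and 39.4 FPKM in the Laser tumors, in the PC-La tumors 163 and 96.9, and in the SePC-La tumors 351 and 482. Of 7 neutrophil markers tested, 4 met the criterion as higher in SePC-La than in Laser, beside 0.682% of all genes, and 3 as higher than in PC-La, beside 2.98%. Of 12 macrophage markers 0 did against Laser and 3 against PC-La, 1 higher and 2 lower. The part of these cells in the level of Slc11a1 was not tested.

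Fth1 and Ftl1 encode the heavy and light chains of ferritin, the hollow shell that stores iron. The heavy chain oxidizes iron on entry and the light chain helps to build the mineral core. Fth1 (ENSMUSG00000024661) lies on chromosome 19 from 9980598 to 9985098 on the plus strand and Ftl1 (ENSMUSG00000050708) on chromosome 7 from 45457944 to 45459884 on the minus strand. Fth1 had 770 and 566 FPKM in the Laser tumors, in the PC-La tumors 547 and 478, and in the SePC-La tumors 892 and 1043. Ftl1 had 384 and 268 FPKM in the Laser tumors, in the PC-La tumors 268 and 243, and in the SePC-La tumors 436 and 524. For each chain the samples fell into the same order, with PC-La lowest, Laser between and SePC-La highest. SePC-La was clear of the other groups, while for Ftl1 Laser replicate 2 and PC-La replicate 1 were level.

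The mean of Fth1 was 968 ± 107 FPKM (SD, n = 2) in SePC-La and 512 ± 48.5 (SD, n = 2) in PC-La. The means of SePC-La over PC-La were 1.89 for Fth1 and 1.88 for Ftl1. On the log2 scale these were 0.91 (SE 0.19, limma adjusted p = 0.126) and 0.90 (SE 0.20, limma adjusted p = 0.126), rank 200 and rank 204 from the highest of all genes. They stayed between 0.80 and 1.03 for Fth1 and between 0.77 and 1.04 for Ftl1 with each sample left out, and met the criterion with median-ratio scaling at 1.02 and 1.01. Quantile normalization gave 0.60 for Fth1 and 0.71 for Ftl1. Against Laser, SePC-La was higher by 0.55 (Fth1, SE 0.19) and 0.57 (Ftl1, SE 0.20), each with an adjusted p of 0.385 from limma. Without Laser replicate 2 these were 0.32 and 0.32, and with quantile normalization 0.28 and 0.25, where neither had an unadjusted p under 0.05. PC-La differed from Laser by -0.37 and -0.33, with 95% intervals from -0.83 to 0.09 and from -0.82 to 0.16, and by -0.15 and -0.07 when Laser replicate 1 was left out.

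The ratio of the ferritin chains hardly varied. Fth1 FPKM over Ftl1 FPKM was 2.01 and 2.11 in the Laser tumors, in the PC-La tumors 2.04 and 1.97, and in the SePC-La tumors 2.05 and 1.99. This ratio is not changed by scaling each sample with 1 factor, though quantile normalization can change it and its size rests on the exon lengths used. Tfrc per 1000 FPKM of Fth1, also free of such a factor, was 24.2 and 94.4 in the Laser tumors, in the PC-La tumors 67.2 and 97.8, and in the SePC-La tumors 19.0 and 18.0. The SePC-La samples were the lowest of the 6, Laser replicate 1 was close to them and Laser replicate 2 was among the PC-La samples. Ferritin genes have processed copies with near-identical sequence, and the counting could have split reads among them. Of 8 ferritin copies and relatives listed in the table, 7 were at 0 in every sample and Ftl1-ps1 reached at most 0.656 FPKM. Such low values cannot show whether reads shared between copies were dropped in counting.

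**Figure D3:**
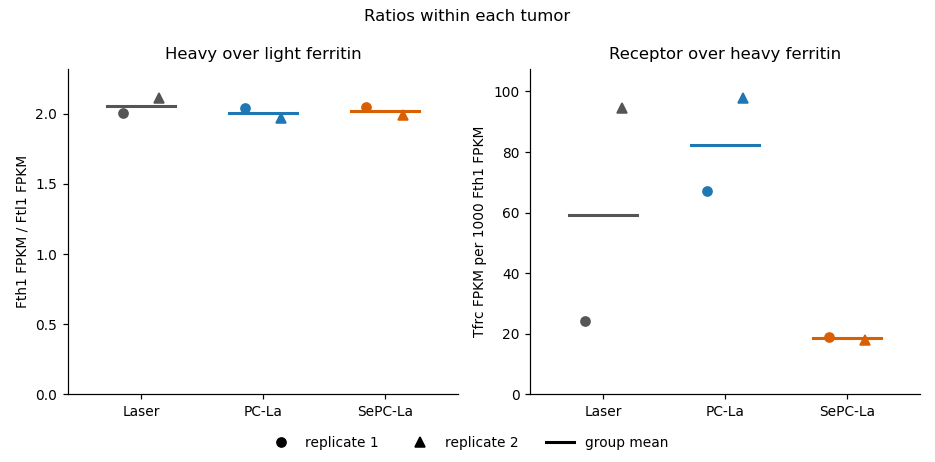
Ratios within each tumor (vertical axes, linear and starting at 0) by group, with circles for replicate 1, triangles for replicate 2 and bars for the mean. Fth1 over Ftl1 (left) stays between 1.97 and 2.11, whereas Tfrc per 1000 FPKM of Fth1 (right) runs from 18.0 to 97.8.

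Ncoa4 (ENSMUSG00000056234) encodes the cargo receptor that delivers ferritin to lysosomes and so releases its iron, on chromosome 14 from 32159865 to 32179855 on the plus strand. It had 5.82 and 7.94 FPKM in the Laser tumors, in the PC-La tumors 4.48 and 4.92, and in the SePC-La tumors 5.60 and 5.20. The Laser samples were the highest and the PC-La samples the lowest, with no overlap between any groups. PC-La was lower than Laser by a log2 fold change of -0.45 (SE 0.17, limma adjusted p = 0.753). Leaving out Laser replicate 2 made it -0.26. The change in SePC-La was -0.29 against Laser and 0.17 against PC-La, with 95% intervals from -0.69 to 0.12 and from -0.24 to 0.57.

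Slc40a1 (ENSMUSG00000025993) encodes ferroportin, the iron exporter, which is strongly expressed by iron-recycling macrophages, and lies on chromosome 1 from 45908068 to 45926523 on the minus strand. Its FPKM was 2.53 and 0.176 in the Laser tumors, in the PC-La tumors 0.519 and 0.371, and in the SePC-La tumors 1.45 and 2.60. Laser replicate 1 lay among the SePC-La samples and Laser replicate 2 below the PC-La samples, while SePC-La and PC-La did not overlap. The mean of SePC-La was 4.54 times that of PC-La, a log2 fold change of 1.04 on log2(FPKM + 1) (SE 0.52, limma adjusted p = 0.263) and 2.16 with voom on recovered reads. Against Laser its direction rested on single samples. The change in SePC-La was 0.54 and turned to -0.25 without Laser replicate 2, and that in PC-La was -0.50 and turned to 0.30 without Laser replicate 1. Of the 12 macrophage markers tested, 5 were higher and 7 lower in SePC-La than in PC-La, and their part in the level of Slc40a1 was not tested.

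Ireb2 (ENSMUSG00000032293) encodes IRP2, an iron regulatory protein that binds the elements shown above, on chromosome 9 from 54863789 to 54912530 on the plus strand. It had 12.4 and 10.6 FPKM in the Laser tumors, in the PC-La tumors 11.7 and 13.1, and in the SePC-La tumors 7.16 and 8.87. Both SePC-La samples were below the other 4, and Laser and PC-La overlapped. The mean of SePC-La was 0.697 times that of Laser and 0.647 times that of PC-La. The log2 fold changes were -0.47 (SE 0.16, limma adjusted p = 0.382) and -0.58 (SE 0.16, limma adjusted p = 0.134). They stayed below 0 with each sample left out, from -0.61 without SePC-La replicate 2 to -0.34 without SePC-La replicate 1 against Laser. IRP2 is known to be controlled by protein breakdown, which these values do not measure. Aco1, which encodes the other iron regulatory protein, had 15.2 and 19.0 FPKM in the Laser tumors, in the PC-La tumors 14.3 and 16.5, and in the SePC-La tumors 15.2 and 16.2, and its groups overlapped.

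A list of 55 other genes of iron and heme handling covered regulators, transporters, ferrireductases and ferroxidases, binding proteins, receptor trafficking and iron-sulfur cluster assembly. All 55 were listed and 39 passed the filter. In SePC-La against PC-La 25 were higher and 14 lower, where 41.5% of all genes were higher. An unadjusted p under 0.05 was reached by 10 of the 39 (8 higher and 2 lower), beside 24.3% of all genes. The criterion was met by 4, all higher, beside 2.98% of all genes. Against Laser, 5 of the 39 in SePC-La had an unadjusted p under 0.05, 3 higher and 2 lower, close to the 12.1% of all genes, and 1 met the criterion, beside 0.682%. In PC-La 5 of the 39 did, all lower, beside 5.78% of all genes, and 2 met the criterion, beside 1.29%. The medians were 0.16, 0.02 and -0.07 in these comparisons, and the 11 genes of iron-sulfur cluster assembly met the criterion in none of them.

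The genes of this list that met the criterion were Hmox1, Lcn2, Steap1 and Slc48a1. Hmox1, the enzyme that opens heme and frees its iron, had 265 and 117 FPKM in the Laser tumors, in the PC-La tumors 83.4 and 50.4, and in the SePC-La tumors 369 and 315. It was lowest in PC-La and highest in SePC-La with no overlap, a log2 fold change of 2.38 between SePC-La and PC-La (SE 0.43, limma adjusted p = 0.126) at rank 8 from the highest of all genes, and of -1.43 between PC-La and Laser (SE 0.43, limma adjusted p = 0.753). The criterion was lost when Laser replicate 1 (-0.84) or PC-La replicate 2 (-1.07) was left out, and leaving out Laser replicate 2 gave -2.02. Slc48a1, a transporter that brings heme out of lysosomes, had 42.5 and 31.9 FPKM in the Laser tumors, in the PC-La tumors 27.4 and 23.5, and in the SePC-La tumors 46.6 and 63.1, the same order of groups as the ferritin chains. Its log2 fold change between SePC-La and PC-La was 1.07 (SE 0.21, limma adjusted p = 0.126), but 0.96 without PC-La replicate 2 and 0.85 without SePC-La replicate 2, both short of the criterion, as it was by a hair with quantile normalization. Steap1, a relative of Steap3, had 31.0 and 47.0 FPKM in the Laser tumors, in the PC-La tumors 16.2 and 21.1, and in the SePC-La tumors 60.5 and 58.4. For Steap1 the log2 fold change was 1.63 between SePC-La and PC-La (SE 0.22, limma adjusted p = 0.0932) and -1.01 between PC-La and Laser (SE 0.22, limma adjusted p = 0.539), and the latter fell short of the criterion when Laser replicate 2 (-0.72) or PC-La replicate 1 (-0.83) was left out.

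Lcn2 encodes lipocalin 2, a neutrophil and epithelial protein that binds iron-carrying siderophores, and the study picked it from these samples as well. The paper states that both treatments lowered Lcn2, whereas here Lcn2 was above Laser in SePC-La and overlapped it in PC-La. The paper lists qRT-PCR primers for Lcn2 too, so its values may come from another measure. Lcn2 had 4.97 and 1.71 FPKM in the Laser tumors, in the PC-La tumors 2.22 and 2.42, and in the SePC-La tumors 7.995 and 11.3, with SePC-La above the other 4 samples. Its log2 fold change was 1.39 against Laser (SE 0.38, limma adjusted p = 0.376) and 1.67 against PC-La (SE 0.38, limma adjusted p = 0.126). For Lcn2 the criterion against Laser was lost without Laser replicate 2 (0.82) and without SePC-La replicate 2 (1.16). The sum of the neutrophil markers given beside Slc11a1 was also highest in SePC-La, and all 7 tested were higher there on average. Mmp9 in SePC-La replicate 1 (6.41 FPKM) was nonetheless below both PC-La samples (11.4 and 13.9 FPKM). The part of neutrophils was not tested. Steap2 and Flvcr1, a ferrireductase and a heme exporter, had the smallest p-values among the rest of the list. Steap2 had 22.4 and 26.5 FPKM in the Laser tumors, in the PC-La tumors 16.3 and 16.7, and in the SePC-La tumors 28.7 and 25.1, so that the PC-La samples were the lowest. Flvcr1 had 12.9 and 15.2 FPKM in the Laser tumors, in the PC-La tumors 8.42 and 7.40, and in the SePC-La tumors 10.7 and 11.3, with PC-La again the lowest and Laser the highest.

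**Figure D4:**
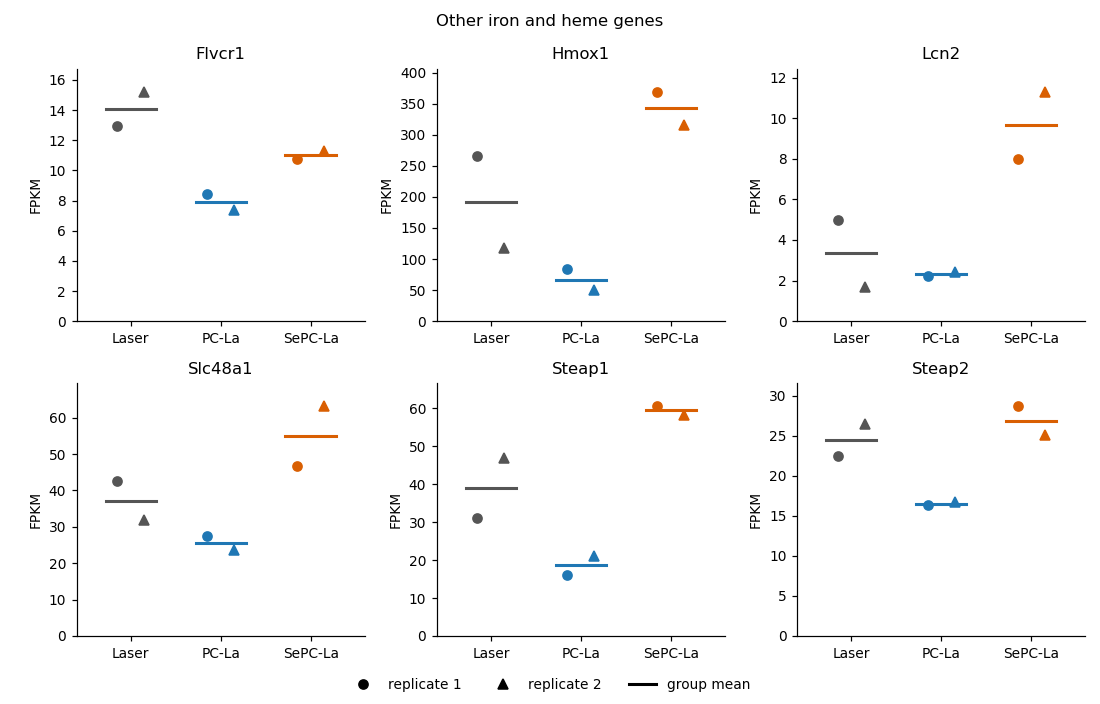
FPKM of 6 other iron and heme genes in each tumor (vertical axes, linear and starting at 0) by group, with circles for replicate 1, triangles for replicate 2 and bars for the group mean. In all 6 genes both PC-La samples lie below both SePC-La samples. The 6 were picked by their differences in these same samples, and these groups did not overlap for 65.5% of all genes tested. For Hmox1 the groups run from 50.4 FPKM in PC-La replicate 2 to 369 in SePC-La replicate 1.

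Red cells carry most of the body's iron, and erythroid markers differed between the groups. The 9 markers summed to 127 and 13.7 FPKM in the Laser tumors, in the PC-La tumors 264 and 362, and in the SePC-La tumors 614 and 934. Of the 9, 4 had a mean under 1 FPKM and 5 were tested. All 5 met the criterion as higher in SePC-La than in Laser, beside 0.682% of all genes. As higher in PC-La than in Laser 3 met it, beside 1.29%, and as higher in SePC-La than in PC-La 1 did, beside 2.98%. Erythroid signal was thus higher in PC-La than in Laser while ferritin and Hmox1 had lower values there, and in SePC-La all of these were highest. Fibroblast markers summed to 1239 and 283 FPKM in the Laser tumors, in the PC-La tumors 1714 and 1562, and in the SePC-La tumors 117 and 631. The part of red cells or fibroblasts in the levels of the iron genes was not tested.

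The patterns most like those of 4 of the genes were found by Pearson's r over the 6 samples on log2(FPKM + 1) among 10852 other genes, as a description only. Nearest to Trf were Nectin2 (r = 0.988), Arl5c (0.987) and Isg15 (0.984), and 38 genes were above 0.95. Tfrc was followed most closely by Capza1 (r = 0.991), Zfp748 (0.990) and Zfp868 (0.982), with 13 genes above 0.95. For Slc11a1 the nearest were Rab20 (r = 0.960), Farsb (0.960) and Esam (0.959), and for Slc40a1 they were Slfn4 (r = 0.969), Adprs (0.964) and Hnrnpk (0.962), with 4 and 5 genes above 0.95. The points are the same 6 libraries in every case.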

How the data were processed

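RNA of 6 LLC-luc tumors, 2 each of Laser, PC-La and SePC-La, was sequenced on an Illumina HiSeq X10 per the study methods. The authors deposited 1 table with a column per sample, and per the labels the processing notes name HISAT2 2.0.5, HTSeq 0.9.1, DESeq 1.30.0 and the build mm9, while the annotation is not given in the sources used here. The deposited values carry no unit and were read as FPKM. Multiplied by merged exon lengths of GENCODE M21 (GRCm38), 97.9% of expressed genes gave whole reads, within 0.05, in every sample, so coordinates are those of GRCm38. Precision is limited by 2 samples per group and, for low genes, by counting.

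The FPKM values were tested as deposited with limma 3.58.1 (R 4.3.3) on log2(FPKM + 1), keeping the 10853 genes whose mean reached 1, with a mean per group, a trend and robust estimation in 1 fit of all samples. Calls used the study's criterion and Benjamini-Hochberg adjustment over all genes. The script was tested on simulated data. The iron genes and all lists were chosen with earlier results of these data known. From the list of other iron genes, those past the criterion were named, filled up to 6 by the smallest p, and Aco1 was added after its values were seen, as the partner of Ireb2. Alternatives were a pseudocount of 0.1, no filter, a minimum mean of 5, quantile normalization, median-ratio scaling, fits without the trend or without robust estimation, the 4 samples compared only, the replicate number as a block, voom on recovered reads, and each sample left out. Plots used Python 3.11.15 and matplotlib 3.10.9. IREs were searched in GENCODE M21 transcripts.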

Additional observations from a re-analysis of the deposited data

How the results depend on the processing

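With all samples kept, no difference of the 10 iron genes turned its direction in any of the settings tried, and Slc40a1 could not be tested at a minimum mean of 5. In SePC-La against PC-La the 0 genes past the criterion became 2 with median-ratio scaling, 1 with quantile normalization (Slc40a1), 1 without the trend, 1 without robust estimation and 2 with only the 4 samples compared. Of the other iron genes, 2 in place of 1 met it in SePC-La against Laser with median-ratio scaling. With the replicate number as a block 1 of the 10 genes met it in SePC-La against PC-La (Tfrc), and the counts against Laser did not move. The numbers gave no sign of pairing, since deviations of same-numbered samples from their group means correlated at 0.086 between Laser and PC-La, -0.43 between Laser and SePC-La and -0.18 between PC-La and SePC-La.

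With each sample left out in turn, the iron genes past the criterion numbered 0 to 2 in PC-La against Laser, 0 to 3 in SePC-La against Laser and 0 to 2 in SePC-La against PC-La, and those of the other iron genes 1 to 2, 0 to 3 and 3 to 5. Directions turned for genes with small or unsteady differences. In PC-La against Laser the lowest and highest log2 fold changes were -0.36 and 1.11 for Tfrc, -0.11 and 0.10 for Slc11a2 (0.04 without PC-La replicate 1), -1.29 and 0.30 for Slc40a1, -0.0048 and 0.21 for Ireb2, and, among the other iron genes, -0.85 and 0.29 for Lcn2. In SePC-La against Laser Slc40a1 ran from -0.25 to 1.33, and in SePC-La against PC-La Steap3 ran from -0.093 to 0.14 and Trf from -0.21 to 0.39. The cause was not tested. The number of samples, 2 per group, limits the precision, and depth limits chiefly Slc40a1, which had as few as 28 reads in a sample.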
